A study of Rattus norvegicus with 6 samples.

Results

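The RT1 class I genes, the rat's major histocompatibility complex class I family, and the genes that make and load their peptides were followed here through the lungs of Tmprss2 knockout rats. The set holds every row of the deposited count table whose name begins with RT1-A, RT1-CE, RT1-M, RT1-N, RT1-S, RT1-T, RT1-O1 or RT1-P, which gave 38 RT1 genes, plus B2m, Tap1, Tap2, Tapbp, Psmb8, Psmb9 and Psmb10: 45 of 40995 genes in all. Lung tissue of 3 wild-type (WT) and 3 crTMPRSS2 knockout (KO) rats, all of Sprague-Dawley background and none treated, was profiled by poly-A selected mRNA sequencing. The KO line carries a CRISPR/Cas9 edit of Tmprss2, the gene of a membrane serine protease of airway and alveolar epithelium. Sprague-Dawley is an outbred stock, and the sources used here do not give age, sex, litter or RT1 haplotype of the animals. Nothing in them says that WT and KO rats were littermates, so line and genotype cannot be told apart.

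A class I molecule is a heavy chain, encoded by an RT1 gene, held together by beta-2 microglobulin (B2m) around a short peptide. The immunoproteasome subunits Psmb8, Psmb9 and Psmb10 cut proteins into such peptides, the transporter Tap1-Tap2 carries them into the endoplasmic reticulum, and tapasin (Tapbp) holds the empty heavy chain next to the transporter while a peptide is fitted. The RT1-A genes, which lie next to the transporter genes, give the classical molecules seen by CD8 T cells. The RT1-CE, RT1-N, RT1-S, RT1-T and RT1-M genes are mostly nonclassical, and some of their products are ligands of natural killer (NK) cell receptors. The number and sequence of RT1 class I genes differ between rat haplotypes, so a gene can be present in 1 animal and absent or unmatched in another.

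The upstream sequences of a few members are shown first, because they show how alike these genes are and which letters they share with each other and with the loading genes. Each line is the 250 bases before the annotated start, 5′ to 3′ on the gene's strand, from RefSeq on the build GRCr8. Capitals mark 2 motifs searched on both strands: the kappaB palindrome of enhancer A, whose letters stand in capitals in the 3 RT1-CE lines, and the interferon-response core GAAA, any 2 bases, GAAA, in capitals in the other 4. No printed window holds both.
RT1-CE16 (chr20:3265444-3265693, minus strand): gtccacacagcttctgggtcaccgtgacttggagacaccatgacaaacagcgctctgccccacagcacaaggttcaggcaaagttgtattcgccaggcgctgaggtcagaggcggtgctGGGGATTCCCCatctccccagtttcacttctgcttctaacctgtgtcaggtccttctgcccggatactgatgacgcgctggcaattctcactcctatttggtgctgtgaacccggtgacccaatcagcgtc
RT1-CE13 (chr20:3322800-3323049, minus strand): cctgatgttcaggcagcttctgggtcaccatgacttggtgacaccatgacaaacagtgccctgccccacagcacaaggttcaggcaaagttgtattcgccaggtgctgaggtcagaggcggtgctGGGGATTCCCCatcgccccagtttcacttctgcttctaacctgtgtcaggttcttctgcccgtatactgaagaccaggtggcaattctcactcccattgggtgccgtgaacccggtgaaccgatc
RT1-CE10 (chr20:3384980-3385229, minus strand): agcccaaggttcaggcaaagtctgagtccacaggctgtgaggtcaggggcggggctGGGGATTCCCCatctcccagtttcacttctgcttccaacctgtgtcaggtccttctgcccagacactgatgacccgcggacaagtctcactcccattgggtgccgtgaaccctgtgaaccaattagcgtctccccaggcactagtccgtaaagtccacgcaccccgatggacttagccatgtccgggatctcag
RT1-S3 (chr20:2675278-2675527, plus strand): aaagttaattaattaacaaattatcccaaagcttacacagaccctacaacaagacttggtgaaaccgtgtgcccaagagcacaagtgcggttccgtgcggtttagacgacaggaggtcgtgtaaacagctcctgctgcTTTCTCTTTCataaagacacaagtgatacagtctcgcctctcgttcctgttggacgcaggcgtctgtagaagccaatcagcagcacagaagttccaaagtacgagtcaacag
RT1-N3 (chr20:2666239-2666488, plus strand): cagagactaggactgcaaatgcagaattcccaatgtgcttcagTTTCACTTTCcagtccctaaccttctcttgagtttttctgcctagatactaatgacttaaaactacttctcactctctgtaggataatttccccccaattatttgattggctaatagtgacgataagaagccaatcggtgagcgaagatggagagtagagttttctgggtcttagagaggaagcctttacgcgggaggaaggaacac
Tap1 (chr20:4668544-4668793, minus strand): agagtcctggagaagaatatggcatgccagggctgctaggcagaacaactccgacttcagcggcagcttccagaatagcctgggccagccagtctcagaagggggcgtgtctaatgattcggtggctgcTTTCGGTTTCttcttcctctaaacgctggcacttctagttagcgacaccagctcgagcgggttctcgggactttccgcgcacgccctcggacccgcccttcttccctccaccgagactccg
B2m (chr3:129549080-129549329, plus strand): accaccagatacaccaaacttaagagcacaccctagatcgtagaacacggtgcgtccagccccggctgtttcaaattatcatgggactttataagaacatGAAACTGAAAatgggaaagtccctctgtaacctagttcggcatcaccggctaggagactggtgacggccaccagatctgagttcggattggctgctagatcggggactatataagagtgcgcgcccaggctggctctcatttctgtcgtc

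Of the 45 members, 39 matched the RefSeq promoter table, 32 of them RT1 genes. The kappaB palindrome stood in 8 members (RT1-A1, RT1-A2, RT1-A3, RT1-CE4, RT1-CE10, RT1-CE11, RT1-CE13 and RT1-CE16) and in 20 of all 33469 promoters, 0.0598%. The interferon-response core stood in 8 members (B2m, Tap1, Tap2, Tapbp, Psmb10, RT1-N3, RT1-S2 and RT1-S3) and in 3.41% of all promoters. RT1-CE16 and RT1-CE13 were identical over 224 aligned bases, 89.6% of the window. A match is a description of letters in this window, and the reference strain's sequence need not be that of these rats.

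The libraries held 29933359 to 36895162 counts, and levels below are CPM, counts scaled to library size after TMM normalization, unless FPKM is named, the deposited values scaled by the authors to gene length and library size as well. Tmprss2 mRNA stood at 50.5 to 65.7 CPM across WT and 46.1 to 56.4 CPM across KO. Its log2 fold change, KO over WT, was -0.25 (edgeR adjusted p = 0.508), and -0.36 (adjusted p = 0.0589) without WT replicate 1. An edit that leaves the transcript in place cannot be checked by gene counts. The lung markers were there: Sftpc, the surfactant protein of alveolar type 2 cells, was at 8325 CPM or more in every library. Marco, a macrophage scavenger receptor, was at or near 0 throughout, with at most 2 counts in any library. Other genes of the same alveolar macrophage list were present in every library. Mrc1 was at 88.2 CPM or more, Itgax at 42.4, Pparg at 9.68 and Siglec1 at 7.46 CPM or more. WT replicate 1 stood apart, with 8295 summed CPM of 5 striated muscle markers against 21.8 to 50.0 CPM elsewhere and 3143 summed CPM of 5 squamous epithelium markers against 1.59 to 3.38 CPM elsewhere. Most differences are therefore given both with all 6 libraries and without it. In bulk tissue, fewer cells of a type and less RNA per cell cannot be told apart.

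No RT1 class I gene was at 0 throughout 1 genotype and well counted in the other, and no member passed the test with all 6 libraries. The labels call the libraries biological replicates. Genes were tested with edgeR (quasi-likelihood), and p was adjusted by Benjamini-Hochberg over the 18464 tested genes; 33 of the 45 members had enough counts to be tested. At an adjusted p under 0.05, 0 of the 33 were called higher and 0 lower, against 0.0162% and 0.0379% of all tested genes (10 genes, 0.0542%, in either direction), and 0 of the 33 had an unadjusted p under 0.05, against 11.3% of all tested genes. DESeq2, which called 1.06% of all genes higher and 1.67% lower, limma-voom and limma on log2 FPKM also called 0 members. The lowest adjusted p among the members was 0.472. KO over WT, the members' median was -0.09 on the log2 scale and 13 of 33 lay above 0, beside a median of -0.0029 and 49.7% above 0 over all tested genes. For 24 of the 33 the 95% confidence interval lay within a 2-fold change either way, and the other 9, all with group means under 10 CPM, were RT1-CE3, RT1-CE7, RT1-CE10, RT1-CE11, RT1-CE13, RT1-CE14, RT1-M6-1, RT1-T18 and RT1-T24-1.

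Beta-2 microglobulin, the light chain common to all these molecules, had the highest level per length of any member. B2m (chromosome 3, 109095740 to 109101764 of mRatBN7.2, plus strand) had 2247, 2029 and 1814 CPM in the WT libraries, in the order of their replicate numbers here and below, and 2140, 1963 and 1920 CPM in the KO libraries. The groups overlapped almost fully. KO over WT it differed by -0.02 on the log2 scale (SE 0.11, 95% interval -0.28 to 0.25, edgeR adjusted p = 0.954), or by 0.06 without WT replicate 1, and in FPKM it averaged 1107 ± 125 in WT and 1089 ± 64.3 in KO (SD, n = 3 each).

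Among the heavy chains, 2 genes took most of the counts. RT1-CE16 (chromosome 20, 3257752 to 3260683, minus strand) had 692, 452 and 415 CPM in the WT rats and 474, 424 and 429 CPM in the KO rats. RT1-S3 (2670654 to 2675411, plus strand), which RefSeq also lists as H2-T23 after the mouse gene of the Qa-1 molecule that NK inhibitory receptors bind, had 564, 354 and 295 CPM in the WT rats and 357, 372 and 314 CPM in the KO rats. For both genes WT replicate 1 was the highest library and the other 5 lay close together. With all 6 libraries the log2 fold changes were -0.23 (95% interval -0.69 to 0.23, edgeR adjusted p = 0.631) and -0.22 (-0.77 to 0.33, adjusted p = 0.693); without WT replicate 1 they were 0.03 (-0.12 to 0.18) and 0.10 (-0.10 to 0.30). Together the pair held 55.5% of the summed RT1 CPM in WT and 52.9% in KO, as a share of reads and not per length. The sum over the 38 RT1 genes was 2145, 1482 and 1365 CPM in WT and 1585, 1474 and 1422 CPM in KO, or 1664 ± 421 and 1494 ± 83.2 CPM (SD, n = 3 each), so the groups overlapped in the total as well.

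**Figure D1:**
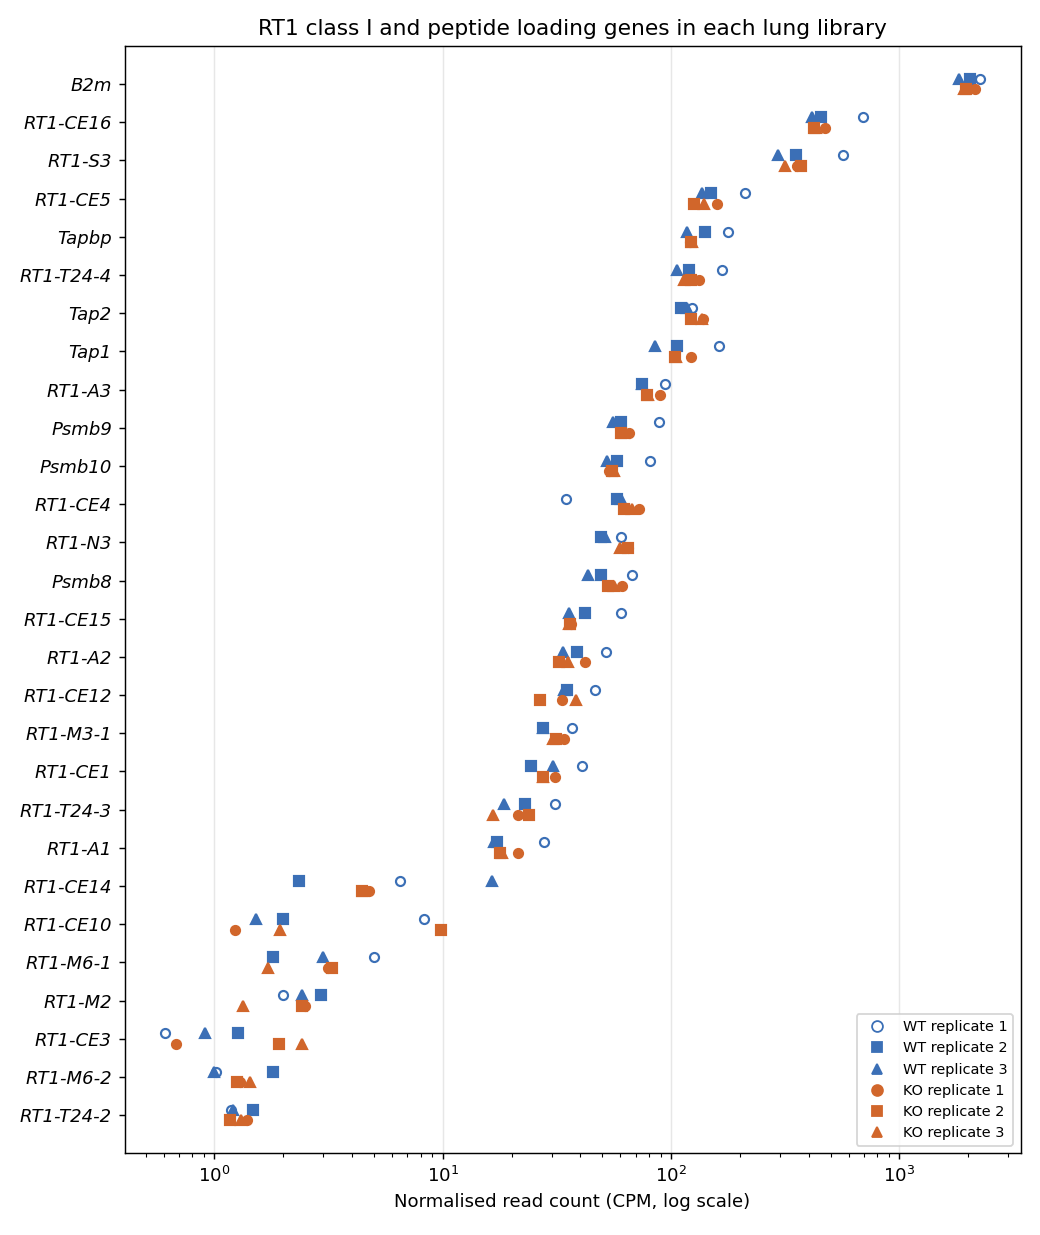
Normalised read count (CPM, log scale, horizontal axis) of the 28 named members in each library; blue symbols are WT, orange symbols KO, symbol shape gives the replicate and the open circle is WT replicate 1. B2m lies at 1814 to 2247 CPM; blue and orange overlap in every row except RT1-CE4, and the open circle is often farthest right.

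Classical RT1-A genes showed the same overlap. RT1-A3 (4847518 to 4851344, plus strand) had 94.0, 74.6 and 74.3 CPM in the WT rats and 89.1, 78.5 and 78.9 CPM in the KO rats. RT1-A2 (4870939 to 4910183) stood at 51.6, 38.5 and 33.5 CPM against 41.9, 32.4 and 35.3 CPM, and RT1-A1 (4905309 to 4914593) at 27.6, 17.2 and 16.7 CPM against 21.4, 17.8 and 18.1 CPM. In all 3 genes WT replicate 1 was the highest library and KO replicate 1 came second. Their log2 fold changes lay between -0.17 and 0.02, with intervals from -0.61 to 0.41, and between 0.02 and 0.17 without WT replicate 1. The gene models of RT1-A2 and RT1-A1 overlap by 4875 bases on the same strand, so reads there could be given to either, to both or to neither.

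The RT1-CE family ran from an abundant heavy chain, RT1-CE16, to RT1-CE6, annotated as noncoding, which had 0 counts. Of its 14 members 12 were tested. RT1-CE5 (3403418 to 3479476) stood at 211, 150 and 136 CPM in WT and 158, 126 and 139 CPM in KO. RT1-CE15, RT1-CE12 and RT1-CE1 lay between 24.5 and 60.3 CPM in every library. Their log2 fold changes were -0.35, -0.23 and -0.15 (95% intervals from -0.79 to 0.29). These became -0.11, -0.07 and 0.06 without WT replicate 1, the highest library for all 3 genes, so that library carried most of each value and set the sign of the last; RT1-CE5 went from -0.23 to -0.02. RT1-CE4 (3431509 to 3504535) was the 1 member whose groups did not overlap with all 6 libraries. It had 34.7, 57.8 and 60.6 CPM in the WT rats and 72.1, 62.4 and 67.3 CPM in the KO rats. The gap between WT replicate 3 and KO replicate 2 was small, and WT replicate 1, which was the highest library for 14 of the 26 tested RT1 genes, was the lowest for this one. Its log2 fold change was 0.40 (SE 0.21, adjusted p = 0.498), and 0.19 (adjusted p = 0.235) without WT replicate 1. A complete separation of KO above WT was found in 11.4% of all tested genes, so 1 of 33 is below the background. RT1-CE4 and RT1-CE5 overlap by 47968 bases on the same strand, and RT1-CE6 and RT1-CE7 lie inside that overlap. Reads there could be given to any of these genes or to none, so 0 counts for RT1-CE6 need not mean that no read fell there.

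Some RT1-CE genes differed more between single rats than between the genotypes. RT1-CE10 (3377284 to 3380301, minus strand) had 245, 66 and 57 counts in WT replicates 1 to 3 and 38, 312 and 61 counts in KO replicates 1 to 3, or 8.29, 1.99 and 1.53 CPM against 1.23, 9.84 and 1.94 CPM. Thus 1 rat of each genotype was high and the other two of each were low, and the highest library was 7.99 times the lowest. RT1-CE14 (3296654 to 3300795, minus strand) was high in a different rat: it had 6.50, 2.35 and 16.4 CPM in the WT rats and 4.76, 4.41 and 4.46 CPM in the KO rats, a span of 6.97 times set by WT replicates 2 and 3. RT1-CE3 had 0.609, 1.27 and 0.912 CPM in the WT rats and 0.680, 1.92 and 2.42 CPM in the KO rats, on at most 76 counts. Their log2 fold changes of 0.15, -0.89 and 0.85 had intervals of -2.00 to 2.29, -2.30 to 0.52 and -0.38 to 2.07, so group differences of that size could not be resolved. They were 1.30, -1.05 and 0.62 without WT replicate 1. Single libraries set these values: without WT replicate 3 the log2 fold change of RT1-CE14 was 0.04, and leaving out 1 library at a time moved that of RT1-CE10 from -1.30 (without KO replicate 2) to 1.30 (without WT replicate 1).

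**Figure D2:**
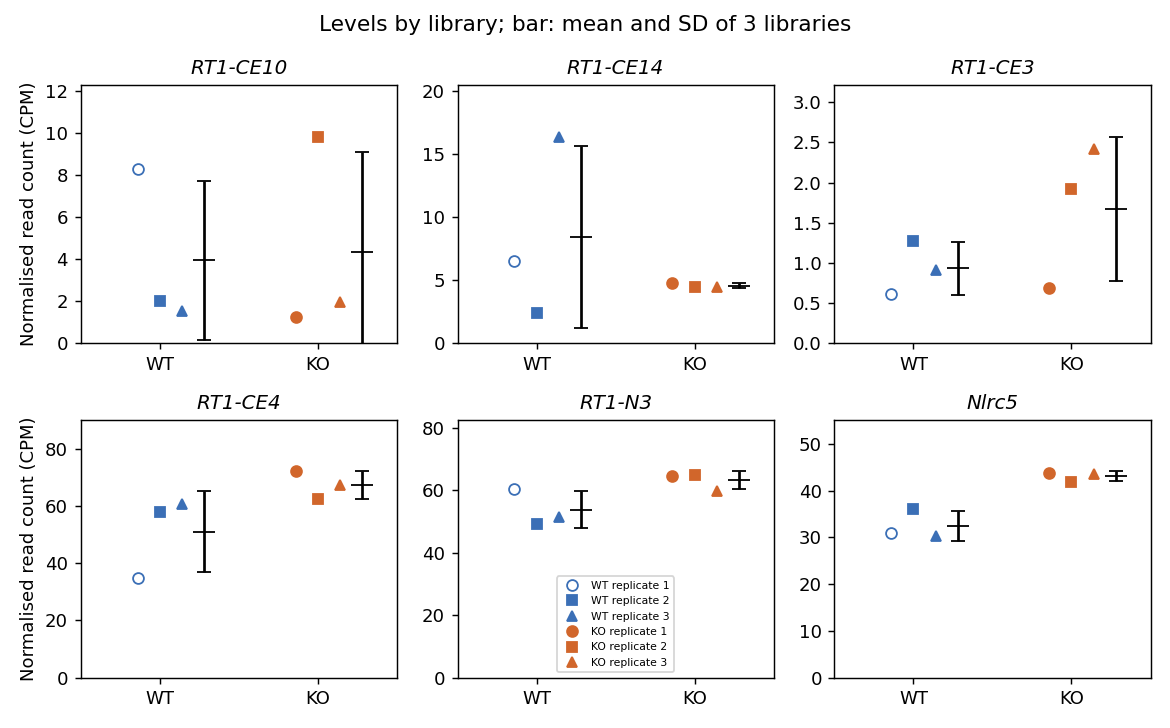
Normalised read count (CPM, vertical axis from 0) of RT1-CE10, RT1-CE14, RT1-CE3, RT1-CE4, RT1-N3 and Nlrc5 by genotype; symbols are single libraries and the black bar is the mean with the SD of 3 libraries. RT1-CE10 is high in WT replicate 1 and KO replicate 2 and RT1-CE14 in WT replicate 3, while Nlrc5 lies at 30.2 to 36.2 CPM across WT and 41.9 to 43.8 CPM across KO.

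RT1-CE10 and RT1-CE14 were the 2 members, of 28 with a mean of at least 1 CPM, whose highest library was at least 4 times the lowest. The same held for 6.45% of all tested genes at that level with all 6 libraries and for 1.68% without WT replicate 1, where both genes still met it. The median ratio of the highest to the lowest library was 1.66 in the members and 1.56 in all tested genes, or 1.27 and 1.26 without WT replicate 1. None of the 33 tested members was at 0 in any library, and the count of members at 0 throughout 1 genotype with at least 10 counts in every library of the other was 0. The low libraries of RT1-CE10 still held 38 to 66 counts; whether these came from the gene itself or from reads of a near-identical copy was not tested.

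RT1-CE16 and RT1-CE13, the RT1-CE pair most alike among the windows compared with RT1-CE16, stood at very different levels. RT1-CE16 averaged 468 ± 139 FPKM in WT and 396 ± 25.3 FPKM in KO. RT1-CE13, whose upstream window printed above shares the kappaB palindrome and 89.6% of the bases, averaged 0.55 ± 0.37 and 0.62 ± 0.084 FPKM (SD, n = 3 each). RT1-CE10, which holds the palindrome too and whose window shares 64.8% of the bases with that of RT1-CE16, was between them at 3.54 ± 3.42 and 3.85 ± 4.24 FPKM. The palindrome begins 194 bases before the annotated start in RT1-CE10, 131 in RT1-CE16 and 125 in RT1-CE13. The windows are thus offset, and the shares depend on the annotated starts as well as on the sequence. Of the 19 RT1 genes with a promoter entry and a mean of at least 1 CPM in either genotype, 6 held the palindrome, and of the 13 below that level 2 did. Gene models with near-identical copies share reads, and the sources used here do not give how the authors treated reads that match several places.

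RT1-N3 was the 1 member that passed without WT replicate 1. It (2659132 to 2665536, plus strand; a nonclassical gene of the RT1-N group) had 60.5, 49.4 and 51.4 CPM in the WT rats and 64.7, 65.0 and 59.8 CPM in the KO rats. WT replicate 1 lay just above the lowest KO library, and the other 2 WT libraries below all 3. With all 6 libraries its log2 fold change was 0.23 (SE 0.11, 95% interval -0.02 to 0.49, edgeR adjusted p = 0.472); without WT replicate 1 it rose by 0.33 (SE 0.07, 0.17 to 0.48, adjusted p = 0.0292), with only 2 WT libraries behind the value. In that fit 1.65% of 18994 tested genes were called higher and 2.34% lower (3.99% in all), against 1 and 0 of the 33 members.

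None of the other nonclassical genes passed in either fit. RT1-T24-4 (2684515 to 2692515, plus strand), related to mouse H2-T24, had 167, 120 and 106 CPM in the WT rats and 132, 123 and 114 CPM in the KO rats. RT1-T24-3 lay between 16.6 and 31.1 CPM, and the noncoding RT1-T24-2 between 1.17 and 1.48 CPM. RT1-M3-1 (1323976 to 1328126, minus strand), the counterpart of mouse H2-M3, which presents N-formylated bacterial peptides, had 36.9, 27.5 and 27.4 CPM in the WT rats and 34.0, 31.4 and 30.5 CPM in the KO rats. RT1-M6-1, RT1-M2 and RT1-M6-2 were low, between 0.992 and 5.01 CPM in every library. With all 6 libraries and without WT replicate 1, the log2 fold changes were -0.09 and 0.12 for RT1-T24-4, -0.23 and -0.0052 for RT1-T24-3, 0.06 and 0.22 for RT1-M3-1, -0.26 and 0.18 for RT1-M6-1, -0.23 and -0.35 for RT1-M2, and 0.06 and -0.07 for RT1-M6-2. The remaining 5 tested RT1 genes, RT1-CE7, RT1-CE11, RT1-CE13, RT1-T18 and RT1-T24-1, were between 0.194 and 1.30 CPM.

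The 12 members that were not tested were at or near 0. Of these, 6 (RT1-CE6, RT1-M1-2, RT1-M1-4, RT1-M1-5, RT1-M3-2-ps and RT1-O1) had 0 counts in all 6 libraries. Such a 0 allows up to 3 counts per library, or 0.0813 CPM in the deepest (scaled to its total count without TMM), counting error only. That bound takes counts as independent, so it is too low where each mate of a read pair counts. Nor does it cover RT1-CE6, which lies inside RT1-CE4 and RT1-CE5 on the same strand, where reads may be left uncounted. The other 6 (RT1-CE2, RT1-M4, RT1-M5, RT1-M10-1, RT1-N2 and RT1-S2) had at most 9 counts in any library. RT1-M4 and RT1-M5 had 3 counts each in WT replicate 2, 1 and 2 in WT replicate 3 and 0 in KO, while RT1-S2 had 3 and 1 in KO replicates 1 and 3 and 0 in WT. Such counts lie at or under the floor of 3, and no fold is given for them.

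**Figure D3:**
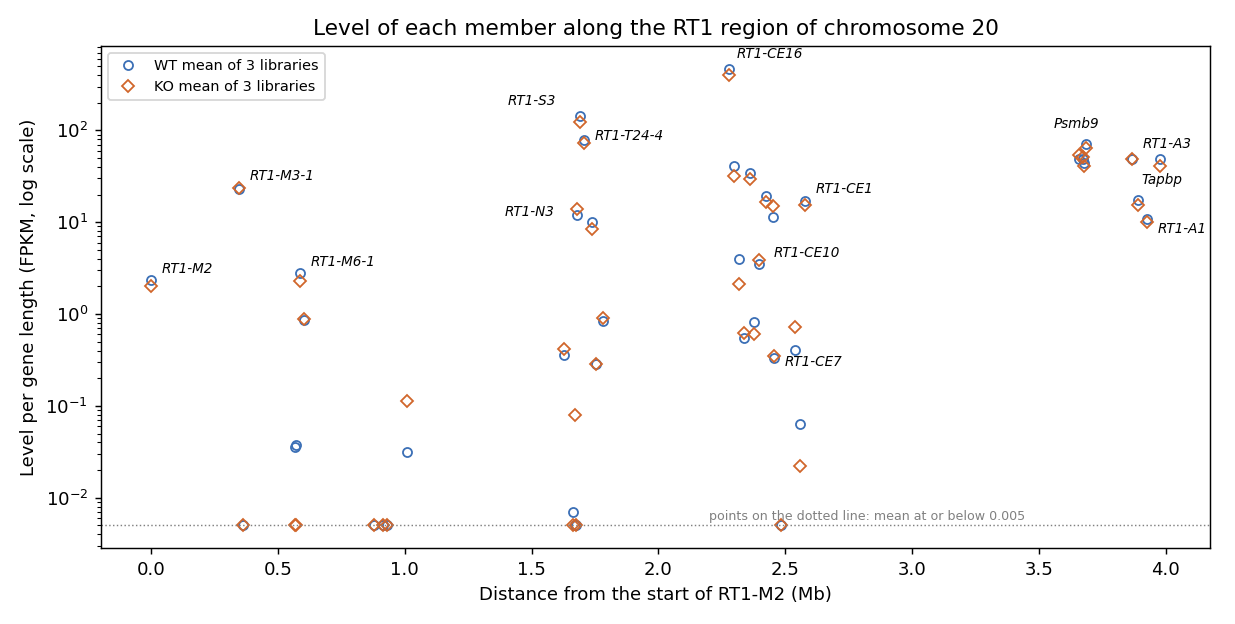
Level per gene length (FPKM, log scale, vertical axis) of the 43 members on chromosome 20 against their distance in Mb from the start of RT1-M2; circles are WT means and diamonds KO means of 3 libraries, and the dotted line holds genes at or below 0.005 FPKM. WT and KO symbols lie nearly on top of each other for the well expressed genes, and neighbouring genes of one cluster differ by several orders of magnitude.

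Of the transporter and tapasin genes, 0 of 3 passed with all 6 libraries or without WT replicate 1. Tap1 (4656262 to 4666634, minus strand) had 162, 106 and 85.2 CPM in the WT rats and 122, 104 and 105 CPM in the KO rats. Its neighbour Psmb9 (4667044 to 4672512, plus strand) lies 409 bases away and is read in the opposite direction. Psmb9 had 88.5, 60.4 and 55.5 CPM in the WT rats and 65.6, 60.1 and 62.1 CPM in the KO rats. Both were highest in WT replicate 1 and lowest in WT replicate 3, with the KO libraries between. Tap2 (4636347 to 4650387, minus strand) had 124, 111 and 118 CPM in the WT rats and 138, 122 and 137 CPM in the KO rats, a log2 fold change of 0.17 (95% interval -0.06 to 0.40, adjusted p = 0.526) and of 0.21 (adjusted p = 0.154) without WT replicate 1. Tapbp (4956937 to 4966191, minus strand) had 177, 140 and 117 CPM in the WT rats and 121, 122 and 124 CPM in the KO rats, so that the KO values lay within the WT range; its log2 fold change was -0.24 with all 6 libraries and -0.07 without WT replicate 1.

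Psmb8 (4652159 to 4655122, minus strand) was the immunoproteasome subunit with the largest difference once WT replicate 1 was left out. It had 67.2, 49.3 and 43.1 CPM in the WT rats and 60.9, 53.0 and 56.0 CPM in the KO rats. KO lay above WT replicates 2 and 3 and below WT replicate 1. The log2 fold change was 0.09 (edgeR adjusted p = 0.819) with all 6 libraries and 0.29 (SE 0.09, adjusted p = 0.0948) without WT replicate 1, where DESeq2 called it (adjusted p = 0.0487). Psmb10 (chromosome 19, 33830958 to 33833442) had 81.2, 57.8 and 52.3 CPM in the WT rats and 53.4, 55.1 and 56.1 CPM in the KO rats. With all 6 libraries and without WT replicate 1, the log2 fold changes were -0.22 and -0.0031 for Psmb10, -0.12 and 0.11 for Psmb9 and -0.09 and 0.21 for Tap1.

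**Figure D4:**
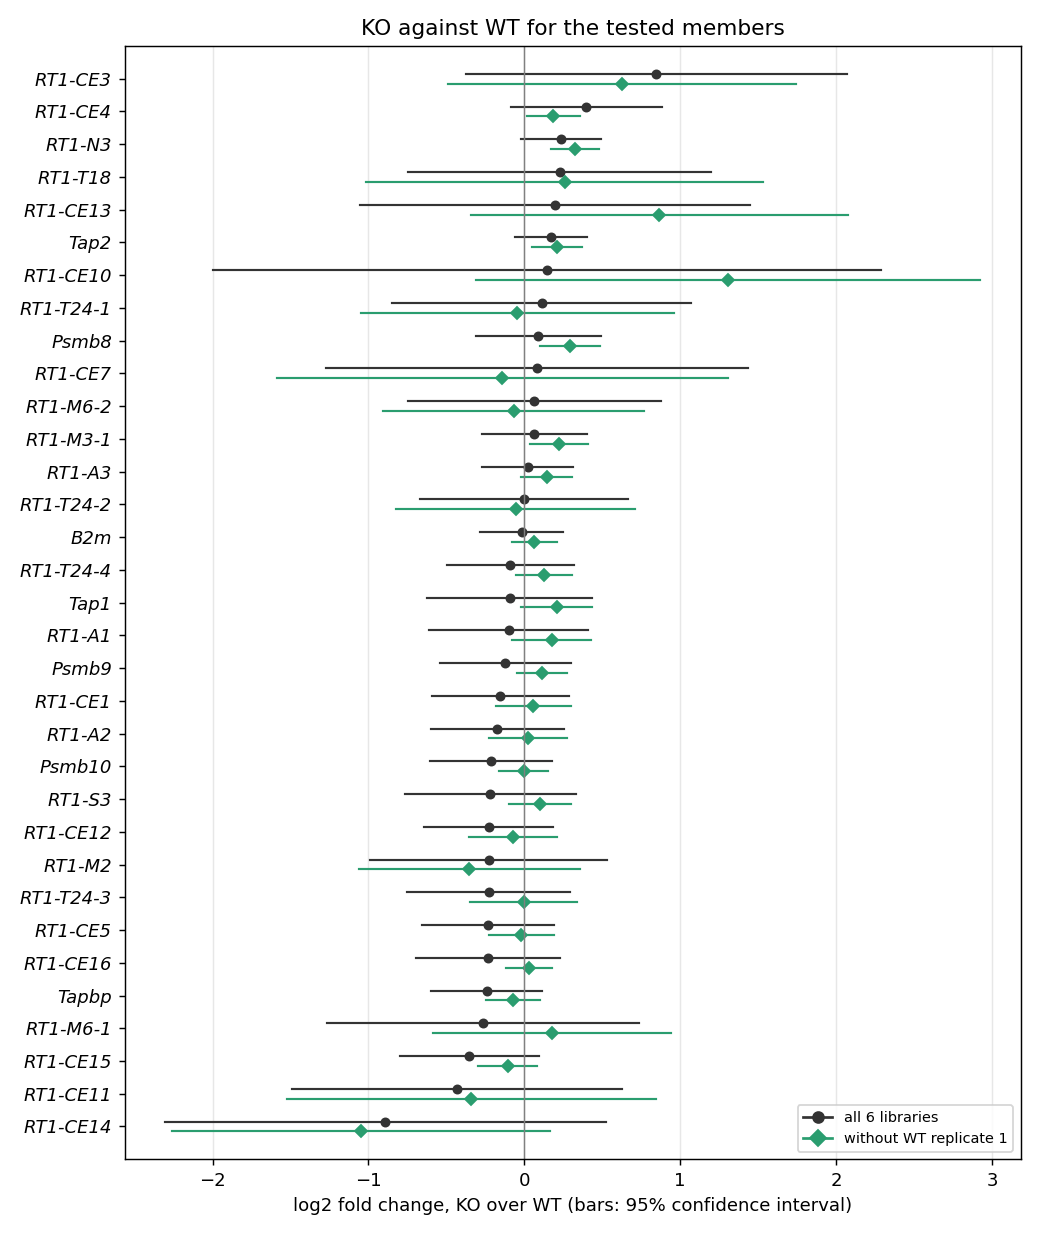
log2 fold change of KO over WT (horizontal axis) with its 95% confidence interval for the 33 tested members; black circles use all 6 libraries and green diamonds leave out WT replicate 1. Every black interval crosses 0, and without WT replicate 1 the interval of RT1-N3 runs from 0.17 to 0.48.

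Leaving out WT replicate 1 moved the log2 fold change up in 25 of the 33 tested members and down in 8, among them RT1-CE4, RT1-CE3 and RT1-CE14. It was the highest library for 20 of the 33 tested members, 14 of them RT1 genes, and for 36.4% of all tested genes (it was the lowest for 37.3% of them). Without it 20 of 33 members lay above 0 on the log2 scale and their median was 0.06, against 50.7% and 0.0036 over all tested genes. Every KO library lay above both remaining WT libraries in 8 members, against 17.1% of all tested genes, and below both in 0, against 17.5%. An unadjusted p under 0.05 was found for 5 members (RT1-N3, RT1-CE4, RT1-M3-1, Tap2 and Psmb8), all higher in KO; 17.8% of all tested genes had one. The part of the muscle and squamous RNA of WT replicate 1 in these shifts was not tested.

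Of 34 further genes of the pathway, taken as a list, 33 were tested and 0 passed with all 6 libraries by edgeR, while 7 had an unadjusted p under 0.05 (all tested genes, 11.3%) and DESeq2 called 1, Cd8a, higher (all genes, 1.06%). Without WT replicate 1 edgeR called 2 of the 33 higher, Nlrc5 and Cd8a, and 1 lower, Pdia3, beside 1.65% and 2.34% of all tested genes; counts this small say little about the list as a whole. Nlrc5, the transactivator that opens class I promoters, had 30.9, 36.2 and 30.2 CPM in the WT rats and 43.8, 41.9 and 43.7 CPM in the KO rats. All KO libraries lay above all WT libraries. Its log2 fold change was 0.41 (SE 0.11, 95% interval 0.16 to 0.66, adjusted p = 0.259) with all 6 and 0.38 (SE 0.09, adjusted p = 0.0437) without WT replicate 1.

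Pdia3 (ERp57), the oxidoreductase bound to tapasin in the loading complex, had 577, 560 and 532 CPM in the WT rats and 464, 454 and 475 CPM in the KO rats, without overlap. Its log2 fold change was -0.26 (SE 0.09, adjusted p = 0.376) with all 6 libraries and -0.23 (SE 0.05, adjusted p = 0.0402) without WT replicate 1. Calreticulin (Calr), the chaperone of the same complex, stood at 868 ± 194 and 644 ± 42.6 CPM, with adjusted p of 0.402 and 0.0852 in the 2 fits, and is named here after its values were seen. The peptide-trimming enzymes Erap1 and Lnpep stood at 94.0 ± 2.08 and 125 ± 37.1 CPM in WT and at 84.8 ± 1.60 and 149 ± 3.74 CPM in KO; without WT replicate 1 the log2 fold change of Erap1 stayed near its value (-0.15 and -0.13) and that of Lnpep went from 0.25 to 0.03. The proteasome activator subunits Psme1 and Psme2, each with a log2 fold change of -0.21, and the constitutive proteasome subunits Psmb5 and Psmb6, at -0.39 and -0.35, did not pass in either fit. WT replicate 1 carried most of these values: without it they were 0.0078, -0.04, -0.13 and -0.04.

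Interferon gamma itself was near 0: Ifng had at most 4 counts in any library. Its receptor chains Ifngr1 and Ifngr2 had log2 fold changes of -0.06 and -0.28, and of 0.09 and -0.15 without WT replicate 1. Among class I-like genes outside the RT1 region, Fcgrt, the neonatal Fc receptor that pairs with B2m, stood at 153 ± 31.1 (WT) and 118 ± 1.47 CPM (KO), and Procr, the endothelial protein C receptor, at 22.6 ± 3.28 and 15.1 ± 2.58 CPM. Their log2 fold changes of -0.37 and -0.58 had adjusted p of 0.420 and 0.315; without WT replicate 1 they were -0.19 and -0.47, with adjusted p of 0.115 and 0.113.

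Cd8a, a chain of the coreceptor that binds class I molecules, had 10.4, 21.4 and 17.7 CPM in the WT rats and 36.1, 33.5 and 38.2 CPM in the KO rats. Its log2 fold change was 1.12 (SE 0.25, adjusted p = 0.224) and 0.88 (SE 0.10, adjusted p = 0.0020) without WT replicate 1; in the authors' deposited table, which lists 192 genes and 0 of the members, it is 1.12 with an adjusted p of 0.00143. Cd8b, the other coreceptor chain on the list, is named here after its values were seen. It stood at 2.49 ± 0.899 (WT) and 4.58 ± 0.497 CPM (KO) and was not called in either edgeR fit. Its log2 fold change was 0.87 (adjusted p = 0.384) with all 6 libraries and 0.61 (adjusted p = 0.163) without WT replicate 1. Marker sums of other cell types differed alongside. The 8 NK markers summed to 18.4, 95.2 and 96.9 CPM across WT and 183 to 185 CPM across KO. The 6 B cell markers summed to 44.2 to 88.4 and 115 to 142 CPM. With all 6 libraries edgeR called 0 of either list. Without WT replicate 1 it called 6 of 8 and 5 of 6 higher, beside 1.65% of all tested genes. The 7 T cell markers summed to 133 to 140 and 152 to 178 CPM, with 0 of 7 called in either fit. Cd4 makes up most of that sum, and its group means were 98.9 (WT) and 99.0 CPM (KO). For 5 others (Cd3e, Cd3d, Cd3g, Lck and Cd2) every KO library lay above every WT library, as in 11.4% of all tested genes. The median log2 fold change of the 7 was 0.72 with all 6 libraries and 0.52 without WT replicate 1. By edgeR, 3 of 7 had an unadjusted p under 0.05 with all 6 libraries, and 6 of 7 without WT replicate 1. Over all tested genes the shares were 11.3% and 17.8%. Alveolar type 2 markers summed to 18413 to 30147 CPM in WT against 15456 to 16915 in KO. Airway secretory markers summed to 3823 to 4779 against 5462 to 6504, and 4 endothelial markers to 2621 to 4450 against 2307 to 2480. WT replicate 1 was the highest WT library for the first and last sum. With all 6 libraries edgeR called 0 of these lists. Without WT replicate 1 it called 2 of 5 lower, 2 of 3 higher and 1 of 4 lower. The shares over all tested genes were again 1.65% higher and 2.34% lower. Scgb1a1 made up most of the airway sum. Cyp2f4, not called, had log2 fold changes of -0.11 and, without WT replicate 1, 0.10. Of the endothelial genes, Cldn5 was called, at -0.46 without WT replicate 1. Cdh5, Pecam1 and Tek stood at -0.15, -0.11 and 0.18. Alveolar macrophage markers summed to 180 to 215 CPM in WT against 162 to 204 in KO. Of the 4 tested, edgeR called 0 with all 6 libraries. Without WT replicate 1 it called Itgax higher and Mrc1 lower (adjusted p = 0.0372 and 0.0221). The part of these cell types in the levels of RT1-N3, Nlrc5 and Cd8a was not tested.

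The members on chromosome 20 span 978940 to 4966191 of mRatBN7.2, and 231 other genes lie between them. Of 138 tested with all 6 libraries, 0 passed by edgeR, 16 had an unadjusted p under 0.05, near the 11.3% of all tested genes, and DESeq2 called 5, all lower, beside 1.67% of all genes. Without WT replicate 1, 1 of 137 was called higher and 6 lower, beside 1.65% and 2.34%; nothing particular to the region is read from these counts. The 7 called genes are named after their values were seen. With all 6 libraries and without WT replicate 1, the log2 fold changes were -0.69 and -0.66 for complement C4a, -0.72 and -0.50 for C2, -0.51 and -0.31 for Cfb, -0.67 and -0.52 for the pseudogene Tnxa-ps1, and 0.50 and 0.38 for the nuclear envelope gene Nrm. The heat shock gene Hspa1b (-1.01 and -1.14) had 26.8, 22.6 and 51.3 CPM in the WT rats and at most 19.3 CPM in KO, and LOC108348108 (-1.42 and -1.64) had 6.94, 6.76 and 17.2 CPM and 2.75 to 4.41 CPM; in both, WT replicate 3 was far above the other WT libraries. C4a stood at 1897 ± 95.7 (WT) and 1173 ± 97.9 CPM (KO) (SD, n = 3 each), and its edgeR adjusted p was 0.108 with all 6 libraries and 0.00108 without WT replicate 1.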

How the data were processed

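Lung mRNA of 3 WT and 3 KO rats was sequenced. Gene counts on mRatBN7.2 were deposited by the authors as whole numbers with no normalization, and FPKM were deposited alongside, scaled by the authors to gene length and library size. The authors' deposited table of 192 genes holds normalized count signal, log2 fold changes and p-values of KO over WT. The submitters' processing notes name featureCounts 2.0.6, DESeq2 1.42.0, StringTie 2.2.3, HISAT2 2.2.1 and CASAVA. Strand setting, handling of reads that match several genes and tool settings: not given in the sources used here. Per the deposited counts, even values outnumbered odd ones (3171 against 1641 in WT replicate 1), as where each mate of a read pair counts.

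Counts were fitted across all genes with edgeR 4.0.16 (R 4.3.3; filterByExpr with a minimum count of 10, TMM, quasi-likelihood test, Benjamini-Hochberg adjustment over all tested genes, threshold 0.05) in all 6 libraries with genotype alone, and again without WT replicate 1. CPM used TMM library sizes. On simulated counts the fit recovered 51% of 2-fold and 87% of 4-fold changes with all 6 libraries (18108 genes), and 91% and 99% without WT replicate 1 (18592 genes). Of the calls, 6.76% and 6.40% fell on unchanged genes. The changes were placed only in well counted genes, so these shares do not cover members with few counts. Apart from the changes, every library was drawn from the same means, so an outlying library like WT replicate 1 was not imitated. Alternatives were other scalings, DESeq2 1.42.0, limma 3.58.1 (voom, and log2 FPKM plus 1 or 0.1), other filters, the replicate block and leaving out each library. Named were the non-RT1 members, RT1 members that averaged 1 CPM or more in either genotype, members past the threshold in either fit, and of the pathway list those past it in either fit or otherwise up to 2 genes per group with the smallest p. The members and lists were chosen with earlier results of these data known. All 45 members matched RefSeq gene IDs on GRCr8, from which names, synonyms and upstream sequences were taken; no coordinates were converted between builds. Confidence intervals are at 95%.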

Additional observations from a re-analysis of the deposited data

How the results depend on the processing

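With all 6 libraries, no member passed under any of the other scalings, filters or tools tried, and none fell in any setting. Over all genes, 3 were called higher and 7 lower; DESeq2 called 194 and 307, limma on log2 FPKM plus 0.1 called 11 lower, and leaving out each library gave 0 to 314 higher and 1 to 444 lower, the upper ends without WT replicate 1. The replicate block gave 0 higher and 2 lower. Same-numbered WT and KO libraries correlated at -0.08, 0.03 and -0.08 in their deviations from group means, and differently numbered ones at -0.11 to 0.12. With deviations from means of only 3 libraries, these values cannot decide whether the numbers pair the samples. Without WT replicate 1, DESeq2 called 520 and 664 and RLE scaling 312 and 441. Leaving out each library gave 0 to 1 members higher, 0 to 2 pathway genes higher and 0 to 1 lower, and in the RT1 region 0 to 1 higher and 0 to 6 lower. DESeq2 called 1 pathway gene higher and 5 region genes lower with all 6 libraries. Without WT replicate 1, DESeq2 called 2 members higher, 2 pathway genes higher and 3 lower, and 1 region gene higher and 5 lower; RLE scaling gave 1, 2, 1, 1 and 6. The cause of these differences was not tested.

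Of 697 alternative log2 fold changes of 41 genes, 60 changed sign, 54 of them on leaving out a library. The ranges over leaving out each library were -0.092 to 0.064 for B2m, -0.37 to 0.030 for RT1-CE16, -0.40 to 0.10 for RT1-S3, -0.22 to 0.12 for RT1-T24-4, -0.28 to 0.21 for Tap1, -0.25 to 0.11 for Psmb9, -0.042 to 0.29 for Psmb8, -0.042 to 0.14 for RT1-A3, -0.30 to 0.022 for RT1-A2 and -0.23 to 0.17 for RT1-A1. They were -0.011 to 0.22 for RT1-M3-1, -0.31 to 0.058 for RT1-CE1, -1.33 to 0.039 for RT1-CE14, -1.30 to 1.30 for RT1-CE10, -0.56 to 0.18 for RT1-M6-1, -0.38 to 0.0072 for RT1-M2, -0.091 to 0.41 for RT1-M6-2, -0.061 to 0.11 for RT1-T24-2, -0.35 to 0.0078 for Psme1 and -0.16 to 0.091 for Ifngr1. Without WT replicate 1, DESeq2 and RLE scaling gave the same values as edgeR to 2 decimals where they changed sign (0.021 and 0.022 for RT1-A2, 0.0079 and 0.0078 for Psme1, -0.069 and -0.068 for RT1-M6-2). The other 6 sign changes were B2m at 0.032 with upper quartile scaling, RT1-CE10 at -0.033 with log2 FPKM plus 0.1, and RT1-T24-2 at 0.0070 with a stricter filter, 0.0020 with voom, 0.0017 with the replicate block and 0.043 with upper quartile scaling.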
